A study of Saccharomyces cerevisiae with 16 samples.

Results

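Expression of 10 genes of glycolysis and ethanol fermentation was followed in budding yeast (*Saccharomyces cerevisiae*) during the first 6 h of meiosis, in cells lacking the meiotic kinase gene *IME2* and in wild type (WT) cells. The genes were chosen by name, as *HXK1* (YFR053C), *HXK2* (YGL253W), *GLK1* (YCL040W), *PGI1* (YBR196C), *PFK1* (YGR240C), *PFK2* (YMR205C), *FBA1* (YKL060C), *CDC19* (YAL038W), *PDC1* (YLR044C), and *ADH1* (YOL086C). All 10 were found among the 6256 genes of the array, each with 1 probe printed in 2 spots. RNA of *ime2Δ* cells (labelled ime2D, strain YGB221) and of WT cells (strain DSY1089) was collected at 0, 2, 4, and 6 h after induction in 2 independent experiments, which gives 16 single color arrays in 8 groups of 2. Both strains are **a**/α diploids congenic with SK1, a background that sporulates fast, and both carry *ho::LYS2*, *lys2*, *ura3*, *leu2::hisG*, and *trp1::hisG*, with *arg4-BglII* over *arg4-NspI* and *his4B* over *his4X*. The *ime2Δ* strain in addition has both copies of *IME2* replaced by *TRP1*. Cells of both strains were pregrown in glucose and then in acetate, and were induced by transfer to sporulation medium with acetate and raffinose, so that the 0 h arrays show cells that had left glucose before the experiment began. The paper describes aliquots taken from the suspension in sporulation medium at 0 h and at later times. By that description, times of 1 strain and replicate are repeated samples of 1 culture. The main fit treated them as independent, and culture as a random block was an alternative.

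Glycolysis breaks glucose down to pyruvate, and fermentation turns pyruvate into ethanol through pyruvate decarboxylase and alcohol dehydrogenase. Most of the enzymes also work in reverse in cells that make sugar from acetate. However, hexose phosphorylation, phosphofructokinase, and pyruvate kinase run in the glycolytic direction only. Other enzymes bypass the steps of phosphofructokinase and pyruvate kinase. Meiosis in yeast begins when a diploid lacks nitrogen and a fermentable sugar, and glucose represses entry into it.

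Values below are log2 signals, the log2 of a probe's intensity minus that of the median gene on the same array, so that 0 is the level of the median gene and a difference of 1 is a doubling. Signals of different probes cannot be ranked against each other. Differences were tested with limma across 6254 genes (*IME2* and *TRP1* left out), with a call where the p adjusted by Benjamini-Hochberg was under 0.05, and are given with the standard error (SE) of the fit. All 160 values of the 10 genes were well above background, as were between 5939 and 6149 of the 6256 genes on each array. None of their 320 spots was saturated, and the brightest, at 629493 units, lay below the lowest saturation value of the scanner, 643902. At 0 h the brightest of these spots read 586087 and 521022 units on the *ime2Δ* arrays, and 629493 and 475680 on the WT arrays. Whether signals this near the ceiling were compressed was not tested. Array medians lay between 7580 and 14875 units. The medians were 12484 and 12251 on the *ime2Δ* arrays at 6 h, against 9608 and 7580 on the WT arrays at 6 h, and the part of this in the differences was tested only through the other scalings. On all 8 *ime2Δ* arrays the *IME2* probe failed to stand well above background, and it had log2 signals between 2.48 and 5.43 on the WT arrays. Middle meiotic genes (*NDT80*, *SPS1*, *SPS4*, *SMK1*, and *CLB1*) averaged -4.35 and -4.50 at 6 h in *ime2Δ* cells, against 4.91 and 5.14 in WT cells, and already averaged -3.35 and -3.79 at 0 h in *ime2Δ* cells, against -1.29 and -1.27 in WT cells. At 0 h *SPS1* (-3.72), *SPS4* (-6.19), and *SMK1* (-3.22) were called lower in *ime2Δ*, *CLB1* (1.55) was called higher, and *NDT80* (0.14) was not called. Early meiotic genes (*IME1*, *IME4*, *HOP1*, *REC8*, *SPO11*, and *SPO13*) rose from 0 h to 6 h in 6 of 6 cases in *ime2Δ* cells and in 5 of 6 in WT cells. At 0 h they averaged -2.75 and -2.17 in *ime2Δ* cells, against -1.32 and -1.64 in WT cells, and *HOP1* (-1.91), *REC8* (-1.44), and *SPO13* (-1.83) were called lower in *ime2Δ* at that time. Genes that an **a**/α diploid represses (*STE2*, *STE3*, *MFA1*, *MFA2*, *BAR1*, *STE5*, and *GPA1*) were all well above background on every array, as most genes were, and 6 of 7 rose over 6 h in each strain. They averaged -1.48 and -1.43 at 6 h in *ime2Δ* cells, against -0.43 and -0.51 in WT cells. Of these genes, *STE3* (-3.79), *STE5* (-2.79), and *MFA2* (-0.96) were called lower in *ime2Δ* at 6 h. *GPA1* (1.17) was called higher there, and *STE2*, *MFA1*, and *BAR1* were not called. The part of these marker differences in the results below was not tested. Each replicate was hybridized on its own slide, on which *ime2Δ* filled 1 column and WT the other, so strain and slide column cannot be told apart, nor can time and slide row. Slide and experiment cannot be told apart either, so a fit with the slide in it also takes out the experiment.

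Over the 10 genes, the medians of the strains lay close at 0 h and moved apart as the time course went on. The median of the 10 log2 signals was 4.93 and 4.94 at 0 h, 4.25 and 4.03 at 2 h, 4.25 and 3.92 at 4 h, and 3.96 and 3.85 at 6 h on the *ime2Δ* arrays. On the WT arrays it was 4.86 and 4.97 at 0 h, 3.64 and 3.46 at 2 h, 2.75 and 2.10 at 4 h, and 1.92 and 1.58 at 6 h. From 2 h on, both *ime2Δ* arrays of a time lay above both WT arrays of that time in this median. The decline was shallow in *ime2Δ* cells and steep in WT cells, but, as the plot of the 10 genes by array shows, the genes took different courses.

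**Figure D1:**
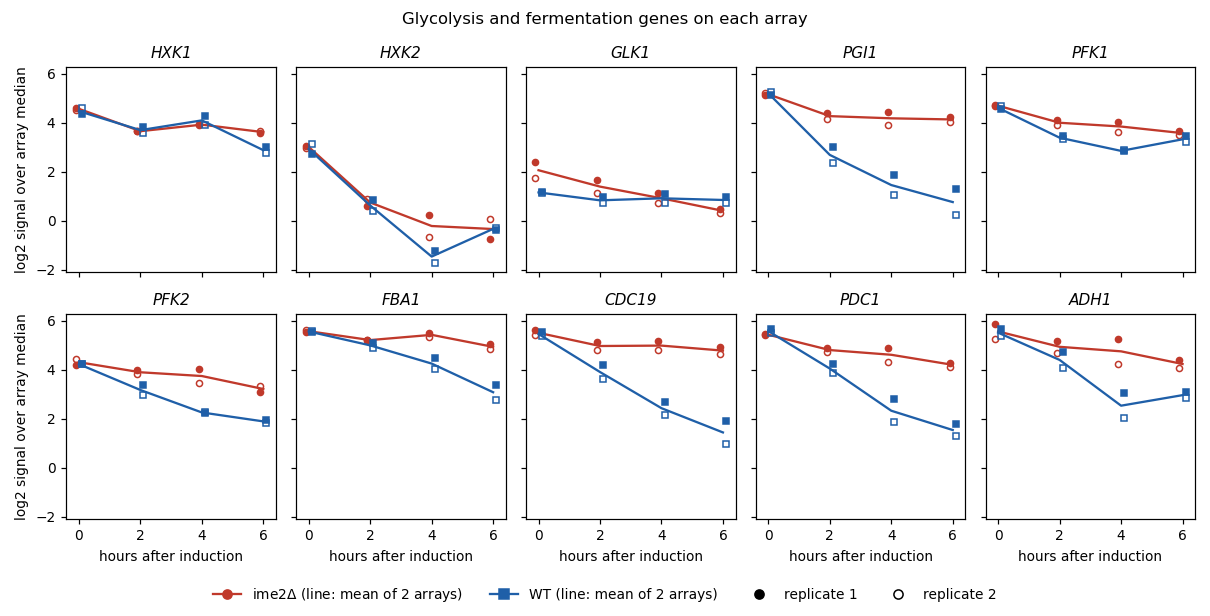
Log2 signal over the array median (y axis) against hours after induction (x axis) for each of the 10 genes, with *ime2Δ* as red circles and WT as blue squares, replicate 1 filled and replicate 2 open, and lines through the means of 2 arrays. Signals can be compared within a panel only. *PGI1*, *CDC19*, and *PDC1* are well apart in the strains by 6 h, *HXK2* falls by more than 3 log2 units in both, and *GLK1* falls by 1.66 in *ime2Δ*, against a change of -0.31 in WT that was not called.

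At 0 h, 9 of the 10 genes differed by no more than 0.15 between *ime2Δ* and WT. None passed the limma threshold, against 4.67% of all genes tested, and 1 gene, *GLK1*, had an unadjusted p under 0.05. For the other 9 genes the difference, *ime2Δ* minus WT, lay between -0.15 and 0.10, and their 95% confidence intervals together spanned -0.79 to 0.89. *GLK1* stood 0.91 ± 0.25 (SE) higher in *ime2Δ* cells (limma, adjusted p = 0.0613), with both *ime2Δ* arrays above both WT arrays, by 1.21 within the first slide and by 0.60 within the second. With the slide (the replicate block) in the fit it passed the threshold (adjusted p = 0.00576), and without *ime2Δ* 0 h replicate 2 it did so as well, at a difference of 1.24.

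At 2 h, 4 of the 10 genes were higher in *ime2Δ* than in WT cells, and none was lower. Of all genes tested, 4.54% were called higher and 9.05% lower. The 4 were *PGI1*, *CDC19*, *PFK2*, and *PFK1*, with differences of 1.59, 1.06, 0.72, and 0.61. The median difference of the 10 genes was 0.59, against 0.03 for all genes. These calls rested on few arrays: none of the 4 was left without *ime2Δ* 2 h replicate 1 or without WT 2 h replicate 2, and 1 was left without *ime2Δ* 2 h replicate 2. With the slide in the fit, 6 genes were called higher, the 4 and also *PDC1* and *GLK1*, where 8.51% of all genes were.

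At 4 h, 8 of the 10 genes were higher in *ime2Δ* cells and none was lower, where 14.2% of all genes were called higher and 16.9% lower. Only *HXK1* and *GLK1* were not called. The median difference of the 10 genes was 1.37, against 0.01 for all genes. At 6 h, 7 genes were higher and none was lower, where 33.1% of all genes were called higher and 31.1% lower. *HXK2*, *GLK1*, and *PFK1* were not called at this time, and *HXK1* was. The median difference at 6 h was 1.30, against 0.10 for all genes. Scaling the arrays to the 75th percentile in place of the median moved that median of all genes to 0.38 and that of the 10 genes to 1.58, and left all 7 genes called, with *PFK1* as the eighth, where 44% of all genes were called higher. In all 19 strain differences called over the 4 times, the arrays of the strains did not overlap and the sign was the same within each slide. The calls came from these same arrays, so this describes them and is no separate test. *GLK1* and *PFK1*, not called at 6 h, did not overlap there either, and the share over all genes was not tested.

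**Figure D2:**
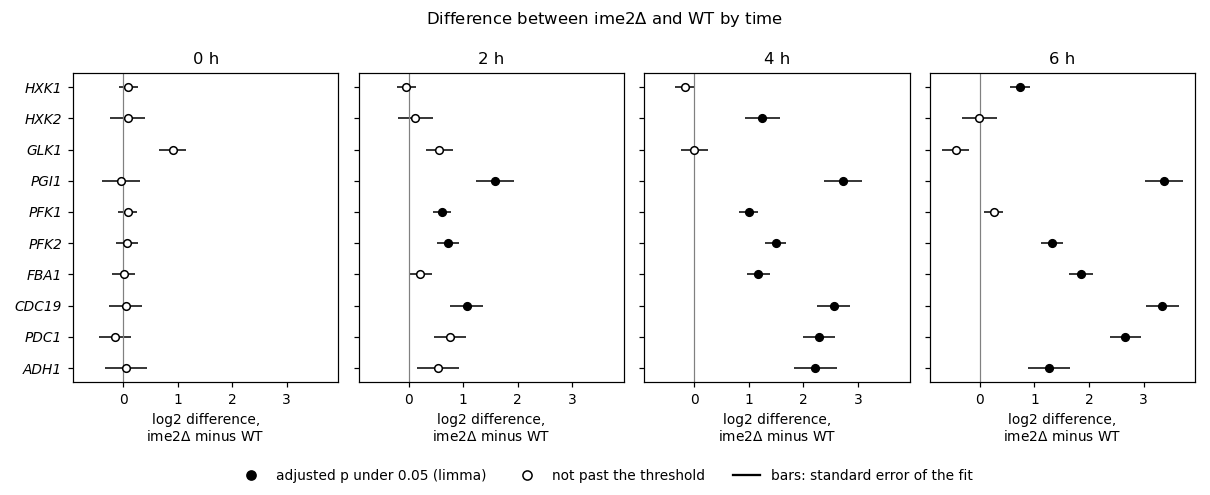
Difference in log2 signal, *ime2Δ* minus WT (x axis), for each gene (rows) at 0, 2, 4, and 6 h (panels), with bars for the standard error of the fit and filled points for an adjusted p under 0.05. All points but *GLK1* lie within 0.15 of 0 at 0 h, and by 6 h *PGI1* and *CDC19* lie beyond 3 while *HXK2* lies at -0.01.

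The change over time was tested within each strain. None of the 10 genes was called higher than at 0 h in either strain. In *ime2Δ* cells 3 genes were lower at 2 h than at 0 h, where 22.1% of all genes were called lower and 17.6% higher. With the slide in the fit 8 were called lower, where 25.8% of all genes were. The count was 2 under 75th percentile scaling (895 of all genes lower) and 2 after quantile normalization (1122 lower). By 4 h, 7 genes were lower in *ime2Δ* cells (26.9% of all genes lower, 23.4% higher). This count was 3 under 75th percentile scaling (19.1% of all genes lower), 3 after quantile normalization (23.3% lower), and 4 without *ime2Δ* 0 h replicate 2 or *ime2Δ* 4 h replicate 2. By 6 h, 9 genes were lower in *ime2Δ* cells (30.1% of all genes lower, 24.5% higher). That count was 7 under 75th percentile scaling (1305 of all genes lower) and 6 after quantile normalization (1621 lower). In WT cells 9 genes were lower by 2 h already (27.2% of all genes lower, 22.2% higher), 8 genes by 4 h (31.8% lower, 30.7% higher), and 9 genes by 6 h (35.7% lower, 35.3% higher). The WT count at 2 h was 7 under 75th percentile scaling (1128 of all genes lower) and 6 after quantile normalization (1481 lower). Under both scalings the WT counts at 4 h and 6 h stayed at 8 and 9. The median change of the 10 genes from 0 h to 6 h was -1.11 in *ime2Δ* cells and -2.52 in WT cells, against -0.10 and -0.01 for all genes. From 2 h to 6 h, 3 genes were lower in *ime2Δ* cells (*GLK1*, *HXK2*, and *PFK2*), where 4.29% of all genes were called lower and 5.71% higher, and 8 were lower in WT cells, where 32.5% of all genes were called lower and 30.4% higher. The *ime2Δ* count of 3 fell to 0 without *ime2Δ* 2 h replicate 1 or *ime2Δ* 6 h replicate 1, and to 1 without either of the other 2 arrays.

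Whether the strains differed in the change itself was asked with the interaction of strain and time. For the change from 0 h to 2 h no gene of the 10 passed the limma threshold, where 3.33% of all genes did, and 5 had an unadjusted p under 0.05, all of them toward a smaller loss in *ime2Δ*. *PGI1* came closest, with a difference of 1.62 ± 0.49 (SE, adjusted p = 0.106). For the change from 0 h to 4 h the difference was called in 7 genes, all higher in *ime2Δ*, where 6.2% of all genes were called higher and 9.37% lower. Without *ime2Δ* 4 h replicate 1 it was called in 4. For the change from 0 h to 6 h it was called higher in 6 genes, where 25.1% of all genes were, and lower in 1, *GLK1*, where 25% of all genes were. These tests share the 0 h arrays with the comparisons above.

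The first step, phosphorylation of glucose, is carried out by the products of *HXK1*, *HXK2*, and *GLK1*, and at 6 h these 3 genes and *PFK1* had the smallest differences between the strains. *HXK2* encodes the hexokinase that predominates in glucose. On the *ime2Δ* arrays its log2 signal was 3.08 and 2.96 at 0 h, 0.62 and 0.87 at 2 h, 0.22 and -0.65 at 4 h, and -0.76 and 0.08 at 6 h. On the WT arrays it was 2.73 and 3.14 at 0 h, 0.85 and 0.40 at 2 h, -1.22 and -1.71 at 4 h, and -0.36 and -0.30 at 6 h. Both strains thus lost most of the *HXK2* signal in the first 2 h, and the strains overlapped at every time but 4 h. From 0 h to 6 h, *HXK2* fell by 3.36 ± 0.32 in *ime2Δ* cells (10.2-fold, adjusted p = 3.73e-06) and by 3.27 ± 0.32 in WT cells (9.64-fold, adjusted p = 1.07e-06). The difference between *ime2Δ* and WT at 6 h was -0.01, with a 95% confidence interval of -0.70 to 0.68. At 4 h *HXK2* was higher in *ime2Δ* cells by 1.25 ± 0.32 (adjusted p = 0.0101), and this call was lost without *ime2Δ* 4 h replicate 1 (0.82) or WT 4 h replicate 2 (1.01). In WT cells the 6 h arrays lay above the 4 h arrays.

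*GLK1* encodes glucokinase. Its log2 signal on the *ime2Δ* arrays was 2.40 and 1.73 at 0 h, 1.65 and 1.14 at 2 h, 1.12 and 0.71 at 4 h, and 0.50 and 0.31 at 6 h. In WT cells the arrays read 1.19 and 1.13 at 0 h, 0.96 and 0.71 at 2 h, 1.10 and 0.73 at 4 h, and 0.97 and 0.72 at 6 h. The *ime2Δ* arrays lay above those of WT at 0 h and 2 h, among them at 4 h, and below them at 6 h. *GLK1* fell by 1.66 ± 0.25 from 0 h to 6 h in *ime2Δ* cells (3.16-fold, adjusted p = 0.000138), whereas in WT cells its change was -0.31 ± 0.25 (adjusted p = 0.292), with every WT array after 0 h below both WT arrays of 0 h. The change differed between the strains by -1.35 ± 0.36 (adjusted p = 0.00744), which was -1.69 within the first slide and -1.01 within the second. The strain difference at 6 h itself, -0.44 ± 0.25, did not pass the threshold (adjusted p = 0.138), and did so with the slide in the fit.

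*HXK1*, the hexokinase made on carbon sources other than glucose, parted between the strains only at 6 h. In *ime2Δ* cells the arrays read 4.62 and 4.53 at 0 h, 3.66 and 3.67 at 2 h, 3.95 and 3.91 at 4 h, and 3.57 and 3.68 at 6 h. The WT arrays gave 4.34 and 4.62 at 0 h, 3.83 and 3.58 at 2 h, 4.30 and 3.90 at 4 h, and 3.0 and 2.77 at 6 h. The arrays of the strains overlapped at each time up to 4 h, and at 6 h *HXK1* was 0.74 ± 0.18 higher in *ime2Δ* cells (1.67-fold, adjusted p = 0.00274). The change from 0 h to 6 h was called different by a small margin (0.64 ± 0.25, adjusted p = 0.0481), and that call was lost without any 1 of 6 of the 8 arrays at 0 h and 6 h, at values from 0.51 to 0.70. *HXK1* and *HXK2* are close in sequence, and the share of either signal that came from the other transcript was not tested.

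*PGI1* encodes phosphoglucose isomerase, a step used in both directions, and with *CDC19* it had the widest strain differences of the 10 genes at 2, 4, and 6 h. Its log2 signal on the *ime2Δ* arrays was 5.14 and 5.20 at 0 h, 4.40 and 4.15 at 2 h, 4.45 and 3.93 at 4 h, and 4.25 and 4.03 at 6 h. On the WT arrays it was 5.16 and 5.26 at 0 h, 3.02 and 2.36 at 2 h, 1.86 and 1.05 at 4 h, and 1.29 and 0.23 at 6 h. Between 2 h and 6 h the change in *ime2Δ* cells was -0.14 (adjusted p = 0.843), while the mean of the WT arrays was lower at each later time. From 0 h to 6 h *PGI1* fell by 1.03 ± 0.35 in *ime2Δ* cells (2.04-fold, adjusted p = 0.0236) and by 4.45 ± 0.35 in WT cells (21.8-fold, adjusted p = 1.52e-07). The *ime2Δ* fall is the less certain of the 2 values, since it missed the threshold without any 1 of the 4 *ime2Δ* arrays at 0 h and 6 h (-1.14 to -0.92), under 75th percentile scaling (-0.76), after quantile normalization (-0.57), and with normexp background correction (-1.07). At 6 h *PGI1* was 3.38 ± 0.35 higher in *ime2Δ* than in WT cells (10.4-fold, adjusted p = 3.43e-06), and it was 2.95 higher within the first slide and 3.80 within the second. The 2 h call, at 1.59 ± 0.35, was lost without *ime2Δ* 2 h replicate 1 (1.46) or WT 2 h replicate 2 (1.26).

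*PFK1* and *PFK2* encode the α and β subunits of phosphofructokinase, the enzyme that commits sugar phosphate to glycolysis. In WT cells both fell up to 4 h, and at 6 h the arrays of *PFK2* lay lower still while those of *PFK1* did not. *PFK2* read 4.19 and 4.43 at 0 h, 3.98 and 3.82 at 2 h, 4.02 and 3.47 at 4 h, and 3.10 and 3.33 at 6 h on the *ime2Δ* arrays. On the WT arrays *PFK2* read 4.23 and 4.23 at 0 h, 3.37 and 2.99 at 2 h, 2.22 and 2.29 at 4 h, and 1.94 and 1.84 at 6 h. The strains did not overlap from 2 h on, and at 6 h *PFK2* was 1.32 ± 0.20 higher in *ime2Δ* cells (2.50-fold, adjusted p = 9.81e-05). *PFK1* read 4.72 and 4.69 at 0 h, 4.10 and 3.91 at 2 h, 4.06 and 3.65 at 4 h, and 3.66 and 3.50 at 6 h in *ime2Δ* cells. In WT cells *PFK1* read 4.55 and 4.68 at 0 h, 3.45 and 3.34 at 2 h, 2.83 and 2.88 at 4 h, and 3.44 and 3.21 at 6 h. For *PFK1* the WT arrays at 6 h were thus back at the level of 2 h, and the gap to *ime2Δ* narrowed. The strain difference of *PFK1* was 1.00 ± 0.17 at 4 h (adjusted p = 0.000861) and 0.25 ± 0.17 at 6 h (adjusted p = 0.211, 95% confidence interval -0.12 to 0.62). The 6 h value depended on the scaling, with 0.53 under the 75th percentile (adjusted p = 0.0157) and 0.74 after quantile normalization (adjusted p = 0.00214).

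*FBA1* encodes the aldolase that splits fructose 1,6-bisphosphate. On the *ime2Δ* arrays its signal was 5.55 and 5.61 at 0 h, 5.23 and 5.21 at 2 h, 5.50 and 5.36 at 4 h, and 5.05 and 4.83 at 6 h. The WT arrays read 5.55 and 5.59 at 0 h, 5.10 and 4.90 at 2 h, 4.49 and 4.02 at 4 h, and 3.39 and 2.78 at 6 h. *FBA1* was thus late to part: the strains differed by 0.22 ± 0.21 at 2 h (adjusted p = 0.554), by 1.17 ± 0.21 at 4 h (adjusted p = 0.00116), and by 1.85 ± 0.21 at 6 h (3.62-fold, adjusted p = 8.57e-06). In WT cells it fell by 1.92 ± 0.21 between 2 h and 6 h alone (adjusted p = 6.34e-06). The fall of *FBA1* over 6 h in *ime2Δ* cells, 0.64 ± 0.21 (adjusted p = 0.0209), was lost under 75th percentile scaling (-0.37) and quantile normalization (-0.25), and without *ime2Δ* 0 h replicate 1 (-0.67), *ime2Δ* 0 h replicate 2 (-0.61), or *ime2Δ* 6 h replicate 2 (-0.54).

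*CDC19* encodes the main pyruvate kinase, which makes pyruvate in the last step of glycolysis. The log2 signal was 5.62 and 5.41 at 0 h, 5.13 and 4.82 at 2 h, 5.19 and 4.79 at 4 h, and 4.92 and 4.65 at 6 h on the *ime2Δ* arrays. It was 5.55 and 5.38 at 0 h, 4.21 and 3.62 at 2 h, 2.69 and 2.17 at 4 h, and 1.90 and 0.98 at 6 h on the WT arrays. The lowest *ime2Δ* array of the whole course, at 4.65, lay above every WT array taken after 0 h. *CDC19* was the 1 gene of the 10 whose change over 6 h in *ime2Δ* cells did not pass the threshold (-0.73 ± 0.30, adjusted p = 0.0560), although it did so with the slide in the fit (adjusted p = 0.00424). In WT cells it fell by 4.03 ± 0.30 (16.3-fold, adjusted p = 1.02e-07). At 6 h the difference between *ime2Δ* and WT was 3.35 ± 0.30 (10.2-fold, adjusted p = 9.61e-07), and the change from 0 h differed by 3.30 ± 0.42 (adjusted p = 4.89e-05).

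The fermentation genes *PDC1*, for the major pyruvate decarboxylase, and *ADH1*, for the alcohol dehydrogenase that makes ethanol, followed the same order of strains. *PDC1* read 5.42 and 5.45 at 0 h, 4.88 and 4.74 at 2 h, 4.91 and 4.32 at 4 h, and 4.28 and 4.13 at 6 h in *ime2Δ* cells. In WT cells *PDC1* read 5.65 and 5.51 at 0 h, 4.25 and 3.86 at 2 h, 2.80 and 1.86 at 4 h, and 1.77 and 1.31 at 6 h. *PDC1* fell in both strains over 6 h, by 1.23 ± 0.29 in *ime2Δ* cells (2.35-fold, adjusted p = 0.00299) and by 4.04 ± 0.29 in WT cells (16.5-fold, adjusted p = 6.51e-08), and it was 2.67 ± 0.29 higher in *ime2Δ* cells at 6 h (6.34-fold, adjusted p = 5.23e-06). *ADH1* read 5.89 and 5.25 at 0 h, 5.19 and 4.70 at 2 h, 5.26 and 4.26 at 4 h, and 4.42 and 4.06 at 6 h in *ime2Δ* cells. In WT cells *ADH1* read 5.67 and 5.37 at 0 h, 4.72 and 4.09 at 2 h, 3.05 and 2.02 at 4 h, and 3.08 and 2.85 at 6 h. The spread between replicates of *ADH1* was the widest of the 10 genes in the fit, with replicate 1 above replicate 2 in all 8 groups. *ADH1* was higher in *ime2Δ* cells by 2.22 ± 0.39 at 4 h (4.67-fold, adjusted p = 0.000946) and by 1.27 ± 0.39 at 6 h (2.42-fold, adjusted p = 0.0116). The 6 h call was lost without *ime2Δ* 6 h replicate 1 (1.10) or WT 6 h replicate 2 (1.16), although the difference was 1.34 within the first slide and 1.21 within the second. The change of *ADH1* from 0 h to 6 h differed by 1.22 ± 0.55, short of the threshold (adjusted p = 0.0799), and passed it with the slide in the fit (adjusted p = 0.00360). The share of the *ADH1* and *PDC1* signals that came from transcripts of related genes, such as *ADH2* and *PDC5*, was not tested.

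The remaining steps of glycolysis were read from 10 further genes: *TPI1*, *TDH1*, *TDH2*, *TDH3*, *PGK1*, *GPM1*, *ENO1*, *ENO2*, *PYK2*, and *EMI2*. At 6 h, 8 of them were higher in *ime2Δ* than in WT cells and 2 were lower, where 33.1% of all genes were called higher and 31.1% lower. The median difference of the 10 further genes was 2.94, against 0.10 for all genes. The 8 were the genes of the shared lower part of the pathway, between triose phosphate and phosphoenolpyruvate. Of these, *TDH1* (a glyceraldehyde 3-phosphate dehydrogenase) stood 3.61 ± 0.40 higher, *GPM1* (phosphoglycerate mutase) 3.58 ± 0.32, *ENO2* (enolase) 3.31 ± 0.28, and *TPI1* (triose phosphate isomerase) 2.22 ± 0.33. *TDH1*, *TDH2*, and *TDH3* are near copies of each other, as are *ENO1* and *ENO2*, so the values of these single genes are uncertain. In WT cells 8 of the 10 genes fell over 6 h and 1 rose, and in *ime2Δ* cells 7 fell and none rose. Of all genes, 35.7% were called lower and 35.3% higher in WT cells, and 30.1% lower and 24.5% higher in *ime2Δ* cells. The median change over 6 h in WT cells was -3.24 for these further genes, and the plot of changes along the pathway sets it beside -4.45 for *PGI1*, -4.04 for *PDC1*, -4.03 for *CDC19*, -3.27 for *HXK2*, -1.59 for *HXK1*, -1.29 for *PFK1*, and -0.31 for *GLK1*, which was not called.

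**Figure D3:**
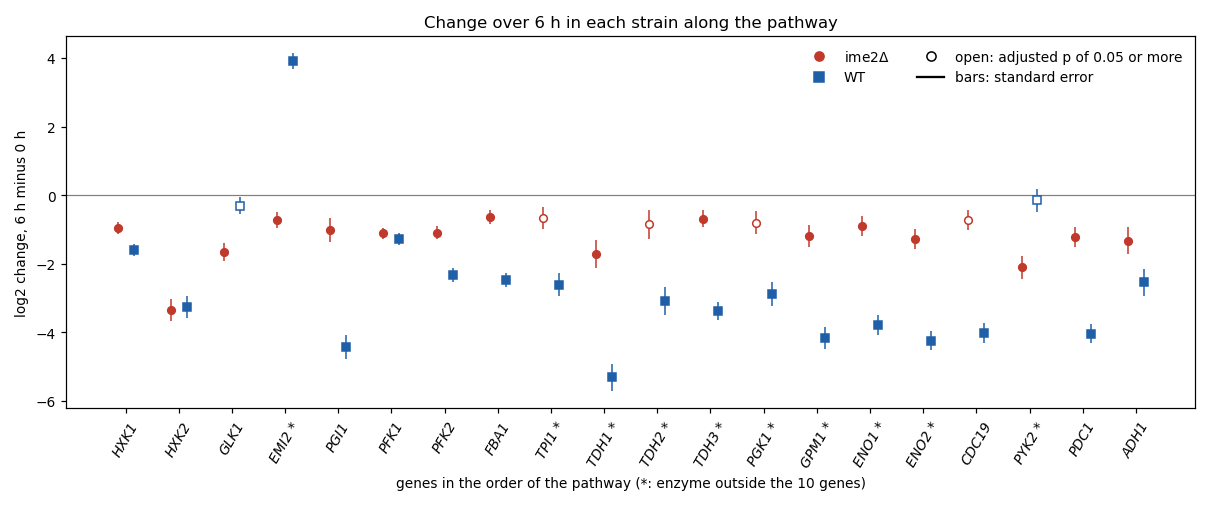
Change in log2 signal from 0 h to 6 h (y axis) in *ime2Δ* (red circles, left of each pair) and WT (blue squares) for the 10 genes and 10 further glycolytic genes (starred) in pathway order (x axis). Bars are standard errors and open points did not reach an adjusted p under 0.05. In most pairs the WT point lies far below the *ime2Δ* point, while *HXK2* and *PFK1* lie close in the strains, *GLK1* and *PYK2* have the order reversed, and *EMI2* rose by 3.91 in WT.

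The 2 glycolytic genes that were lower in *ime2Δ* cells are *EMI2*, a paralog of *GLK1*, and *PYK2*, a second gene for pyruvate kinase. The log2 signal of *EMI2* on the *ime2Δ* arrays was 2.27 and 2.44 at 0 h, 1.95 and 1.58 at 2 h, 1.77 and 2.07 at 4 h, and 1.71 and 1.53 at 6 h. On the WT arrays it was 1.55 and 2.15 at 0 h, 1.10 and 1.09 at 2 h, 2.57 and 3.01 at 4 h, and 5.62 and 5.90 at 6 h. *EMI2* was thus the only gene of these 20 that was called higher at 6 h than at 0 h in WT cells, and it was 4.14 ± 0.23 lower in *ime2Δ* cells at 6 h (adjusted p = 8.73e-09), where *GLK1* differed by -0.44 and was not called. *PYK2*, which glucose represses, read -2.67 and -1.81 at 6 h in *ime2Δ* cells, against -1.21 and -0.81 in WT cells. *PYK2* was 1.23 ± 0.34 lower in *ime2Δ* cells at 6 h (adjusted p = 0.00654), where *CDC19* was higher. At 0 h *PYK2* read 0.02 and -0.29 in *ime2Δ* cells, against -0.96 and -0.76 in WT cells. From 0 h to 6 h *PYK2* fell by 2.11 ± 0.34 in *ime2Δ* cells (adjusted p = 0.000215), and its change in WT cells was -0.15 ± 0.34 (adjusted p = 0.707).

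**Figure D4:**
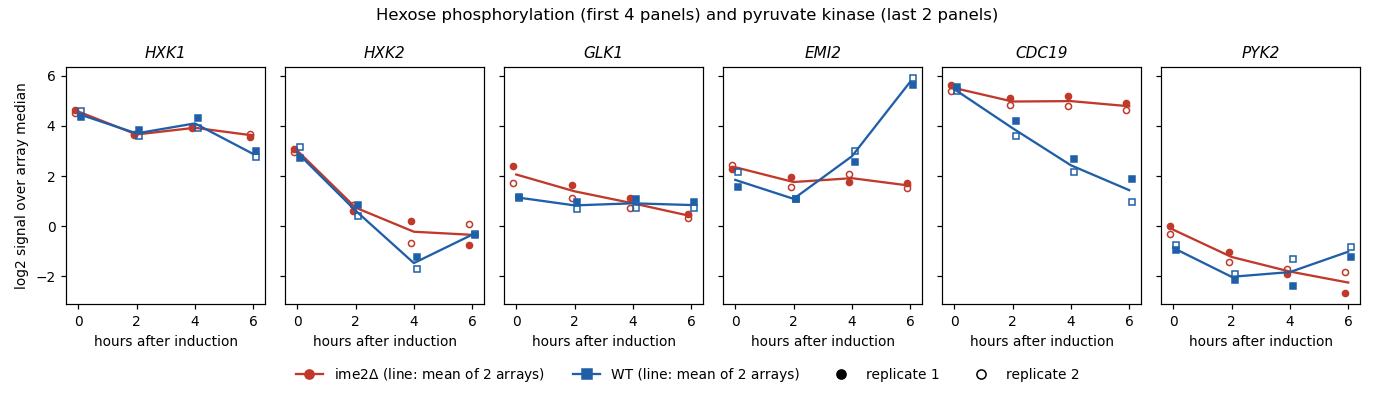
Log2 signal over the array median (y axis) against hours after induction (x axis) for 4 genes of hexose phosphorylation and 2 genes of pyruvate kinase, with *ime2Δ* as red circles and WT as blue squares, replicate 1 filled and replicate 2 open, and lines through the means of 2 arrays. *EMI2* reaches 5.62 and 5.90 in WT at 6 h while *CDC19* drops to 1.90 and 0.98 there, and the means of *HXK2* at 6 h differ by -0.01 between the strains.

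Of the other fermentation genes *PDC5*, *PDC6*, *ADH2*, *ADH3*, *ADH4*, and *ADH5*, 2 were higher in *ime2Δ* cells at 6 h and none was lower. That is near the share over all genes, of which 33.1% were called higher and 31.1% lower. The 2 genes were *ADH5* (1.84 ± 0.33, adjusted p = 0.000363) and *ADH4* (0.87 ± 0.34, adjusted p = 0.0363). *ADH5* was 1.40 ± 0.33 higher in *ime2Δ* cells at 0 h already (adjusted p = 0.0319), and its change from 0 h to 6 h differed by 0.44 ± 0.47 (adjusted p = 0.455). The pyruvate decarboxylase gene *PDC6* fell by 2.83 ± 0.25 over 6 h in *ime2Δ* cells and by 2.94 ± 0.25 in WT cells, and its strain difference at 6 h was -0.36 ± 0.25 (adjusted p = 0.222). Before that *PDC6* was higher in *ime2Δ* cells, by 1.00 ± 0.25 at 2 h (adjusted p = 0.0185) and by 1.03 ± 0.25 at 4 h (adjusted p = 0.00792). *ADH2*, whose product oxidizes ethanol, was at a difference of 0.29 ± 0.24 at 6 h (adjusted p = 0.296). Of the enzymes that bypass the one-way steps, *PCK1* (phosphoenolpyruvate carboxykinase) was 2.20 ± 0.34 lower in *ime2Δ* cells at 6 h (adjusted p = 0.000127) and *PYC1* (pyruvate carboxylase) 1.32 ± 0.19 higher (adjusted p = 7.07e-05), while *FBP1* (fructose 1,6-bisphosphatase) and *PYC2* were not called.

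The genes that set fructose 2,6-bisphosphate, the activator of phosphofructokinase, also differed at 6 h, where 33.1% of all genes were called higher and 31.1% lower. *PFK26* and *PFK27*, which encode the kinases that make it, were 0.99 ± 0.20 and 1.30 ± 0.31 higher in *ime2Δ* cells (adjusted p = 0.00105 and 0.00263), and *FBP26*, for a phosphatase that removes it, was 1.62 ± 0.23 lower (adjusted p = 6.14e-05). *PFK26* was higher at 2 h and 4 h as well, by 0.79 and 0.80. *PFK27* was lower in *ime2Δ* cells at 2 h (-1.21 ± 0.31, adjusted p = 0.0199) and differed by -0.10 ± 0.31 at 4 h (adjusted p = 0.843). In the branch to glycerol, 1 of 4 genes was higher at 6 h (*GPP1*) and 2 were lower (*GPD1* and *GPP2*), although *GPD1* had been 0.69 ± 0.18 higher in *ime2Δ* cells at 2 h (adjusted p = 0.0231). Among 9 hexose transporter and sensor genes, 4 were higher in *ime2Δ* cells at 6 h (*HXT5*, *HXT6*, *SNF3*, and *RGT2*) and 1 was lower (*HXT3*). Neither this list nor that of the glycerol branch was tested as a set against the shares over all genes. *HXT4*, not called at 6 h, was 1.25 ± 0.30 lower in *ime2Δ* cells at 0 h (adjusted p = 0.0347) and 1.37 ± 0.30 lower at 2 h (adjusted p = 0.00844). *HXT6* and *HXT7*, high affinity transporters that are near copies of each other, fell in both strains, *HXT6* by 2.82 ± 0.43 over 6 h in *ime2Δ* cells and by 4.27 ± 0.43 in WT cells.

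Of 4 transcription factor genes that act on glycolytic promoters, *TYE7* was higher in *ime2Δ* cells at 6 h. *TYE7* read 1.80 and 2.63 at 0 h, 1.90 and 2.43 at 2 h, 1.92 and 2.33 at 4 h, and 1.47 and 2.53 at 6 h in *ime2Δ* cells. In WT cells *TYE7* read 2.02 and 2.72 at 0 h, 0.91 and 1.58 at 2 h, -0.28 and 0.42 at 4 h, and -0.67 and -0.11 at 6 h. Its change over 6 h in *ime2Δ* cells was -0.21 ± 0.42 (adjusted p = 0.688), and it was 2.39 ± 0.42 higher there than in WT cells at 6 h (adjusted p = 0.000309). *GCR1* was higher in *ime2Δ* cells by 0.76 ± 0.21 at 2 h (adjusted p = 0.0287) and by 0.67 ± 0.21 at 4 h (adjusted p = 0.0272), and lower at 6 h (-0.69 ± 0.21, adjusted p = 0.0111). *RAP1*, at -0.42 and -0.39 at 2 h and 4 h, was called lower at 6 h alone (-0.80 ± 0.21, adjusted p = 0.00469), and *GCR2* was not called at 6 h (0.07 ± 0.17, adjusted p = 0.707) but was higher in *ime2Δ* cells at 4 h (0.59 ± 0.17, adjusted p = 0.0170). Of 8 genes of glucose repression and induction, 4 were higher in *ime2Δ* cells at 6 h (*SNF1*, *MIG1*, *MIG2*, and *STD1*) and 1 was lower (*GLC7*, which encodes the phosphatase catalytic subunit). At that time 33.1% of all genes were called higher and 31.1% lower.

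The 10 genes resembled each other to different degrees. Over the 8 group means, Pearson's r between 2 of them lay between 0.41 and 0.99 in the 45 pairs, with a median of 0.79. The closest pairs were *PFK2* with *PDC1* (0.990), *PGI1* with *CDC19* (0.986), and *CDC19* with *PDC1* (0.986), and the lowest was *GLK1* with *CDC19* (0.408). These values are descriptions over 8 means that share arrays and cultures. Among the 5872 genes well above background on all arrays, those most like *CDC19* were *TPI1* (0.993), *TYE7* (0.993), and *GPM1* (0.992), and *CDC19* was in turn the third most like *PGI1* (0.986), after *CLN3* and *ZRT2*. For *PDC1* they were *PMA1* (0.996), *RPP2A* (0.993), and *YCF1* (0.991), for *PFK2* *YCF1* (0.996), *CCH1* (0.992), and *PDC1* (0.990), and for *PFK1* *MSN1* (0.995), *ERG12* (0.992), and *PDC2* (0.990). *HXK2* was most like *TRL1* (0.996), *SPB1* (0.993), and *MAK5* (0.993). *FBA1* was most like *UBP12* (0.993), *ADH1* most like *RPS26A* (0.988), and *HXK1* most like *MDV1* (0.980). For *GLK1* the best match, *NAB3*, reached 0.966, the lowest best match of the 10.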

How the data were processed

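Total RNA of *ime2Δ* and WT cells at 0, 2, 4, and 6 h was hybridized to 16 single color Agilent arrays. The authors extracted spot intensities with Agilent Feature Extraction 10.7.1.1 (background subtracted and detrended) and deposited these intensities unscaled. The authors also deposited log2 values scaled to each array's median, which served as an alternative. Genes were named through the array's systematic names, of which 5756 of 6256 matched a RefSeq gene. Log2 intensities were averaged over 2 spots per probe, outlier spots left out, and the array median was subtracted. Groups came from strain, time, and replicate in the labels. The 8 group means were fitted with limma 3.58.1 in R 4.3.3 (8 residual and 4.58 prior degrees of freedom), with calls at a Benjamini-Hochberg adjusted p under 0.05 over 6254 genes. The fit was tested on simulated data. Named are all 10 genes, all genes of the lists of related genes, and, for each of the 10, up to 3 genes most alike over the 8 group means. The genes and lists were chosen with earlier results of these data known. Alternatives were other scalings (75th percentile, quantile), normexp background with an offset of 50, the deposited log2 values, a filter on dim probes, flagged spots kept, the slide (replicate) as a block, the culture as a random block, only the compared groups, a trended robust prior, a minimum log2 difference of 1, and leaving out each array. The number of arrays limits the precision, and p-values measure the spread between 2 experiments.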

Additional observations from a re-analysis of the deposited data

Results flagged for a closer look

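The change from 0 h differed between *ime2Δ* and WT, by the interaction of strain and time in limma, for 7 of the 10 genes at 4 h and for 7 at 6 h. Of all genes, 6.2% were called higher and 9.37% lower at 4 h, against 25.1% and 25% at 6 h. At 4 h the differences (*ime2Δ* minus WT, log2) were 2.77 for *PGI1*, 0.91 for *PFK1*, 1.41 for *PFK2*, 1.16 for *FBA1*, 2.51 for *CDC19*, 2.44 for *PDC1*, and 2.17 for *ADH1*. At 6 h they were 0.64 for *HXK1*, -1.35 for *GLK1*, 3.42 for *PGI1*, 1.25 for *PFK2*, 1.84 for *FBA1*, 3.30 for *CDC19*, and 2.81 for *PDC1*. *GLK1* was the 1 gene with a negative difference among these calls. Each of the 14 values had the same sign within both slides, which is no separate test, since the calls came from the same arrays.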

How the results depend on the processing

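Of 150 comparisons of single genes, 89 were called. Over 890 refits of these with another setting all kept their direction and 41 lost the call, and over 412 refits without 1 array all kept their direction and 75 lost it. Over all settings, 7 to 8 genes were called in the strain difference at 4 h and 6 to 8 at 6 h.

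The count at 0 h, 0 genes, was 1 (*GLK1*) with the replicate block, with culture as a random block, and with a trended robust prior, and 0 to 1 without 1 array. At 2 h, 4 genes became 1 with normexp, 1 with only the groups compared, 2 with a minimum log2 difference of 1, and 0 to 3 without 1 array. For *ime2Δ* at 2 h against 0 h, 3 genes became 8 with the replicate block, 6 with culture as a block, 5 with only the groups compared, 5 with the trended prior, 1 with the minimum difference, and 2 to 4 without 1 array. For *ime2Δ* at 4 h against 0 h, 7 genes became 3 under 75th percentile scaling, 3 after quantile normalization, 2 with the minimum difference, and 4 to 8 without 1 array, with 4 without *ime2Δ* 0 h replicate 2 or *ime2Δ* 4 h replicate 2. For *ime2Δ* at 6 h against 2 h, 3 genes became 0 with only the groups compared, 1 with the minimum difference, and 0 to 1 without 1 array. For *ime2Δ* at 6 h against 0 h, 9 genes became 7 under 75th percentile scaling and 6 after quantile normalization. The 9 genes of WT at 2 h against 0 h also became 7 and 6 under these scalings. The strain difference in the change to 2 h, 0 genes, became 2 with the replicate block, 1 with culture as a block, and 1 with only the groups compared. That in the change to 4 h, 7 genes, became 4 to 8 without 1 array, with 4 without *ime2Δ* 4 h replicate 1.

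The sign turned only in differences that were not called. *HXK2* at 6 h (-0.01) was 0.28 under 75th percentile scaling and 0.16 with normexp, and -0.42 to 0.41 without 1 array. Its difference in the change to 6 h (-0.09) was 0.21 and 0.0066 under the same settings, and -0.51 to 0.33 without 1 array. Without 1 array, *HXK1* at 4 h ranged from -0.37 to 0.025, and *PFK1* in WT at 6 h against 2 h from -0.18 to 0.0501.

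Replicate numbers name slides, and deviations of same-numbered arrays correlated by 0.08 to 0.54 over the 28 pairs of groups (median 0.22). All were positive, so arrays of 1 replicate number shared part of their deviation. Each number stands for 1 slide and 1 experiment, and within a strain for 1 culture, so the sources of this part cannot be told apart. The main fit left the slide out, and this part stayed in its error. With the slide as a block, 17 further results of single genes were called and 0 lost the call, so a result not called in the main fit does not show that a difference is absent. Beside the counts above, the replicate block gave 6 genes at 2 h and 8 at 6 h, where *GLK1* was called lower. At 2 h 8.51% of all genes were called higher with this block, in place of 4.54%, so a setting can move the calls of all genes too. Where a count under another setting has no share over all genes beside it, the count was not compared with that share. Under 75th percentile scaling all genes had a median of 0.19 in place of -0.06 for *ime2Δ* at 2 h against 0 h, and of -0.36 in place of -0.06 for WT at 6 h against 2 h. At 6 h this scaling moved the share of higher among called genes between the strains from 51.6% to 64.4%.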
